A study of Mus musculus with 12 samples.

Results

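Expression of 10 genes that supply or move DNA precursors was described across 4 lines of mouse embryonic fibroblasts (MEFs), out of 24453 genes in the count matrix. The genes were taken by name: *Rrm1*, *Rrm2* and *Rrm2b* for ribonucleotide reductase, *Tk1* and *Dck* for the cytosolic deoxynucleoside kinases, *Tk2* and *Dguok* for the mitochondrial ones, *Samhd1* for the enzyme that breaks dNTPs down, and *Slc25a33* and *Slc25a36* for carriers of pyrimidine nucleotides in the inner mitochondrial membrane. All 10 passed the filter on low counts, with 14026 genes tested in all.

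Cells make dNTPs by 2 routes. Ribonucleotide reductase, built of the large subunit RRM1 and a small subunit, reduces ribonucleoside diphosphates in the cytosol. The small subunit RRM2 is made in S phase and degraded in mitosis, whereas p53R2, the product of *Rrm2b*, is present outside S phase and serves DNA repair and mtDNA synthesis. In the salvage route, kinases phosphorylate deoxynucleosides: TK1 acts in the cytosol of cycling cells, and TK2 and DGUOK act in the mitochondrial matrix. Inherited loss of p53R2, TK2 or DGUOK depletes mtDNA in people.

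All 4 lines derived from C57BL6/J mice with floxed *Pnpt1*, the gene of the RNA-degrading enzyme PNPase. Each was cultured with added uridine (50 µg/mL). TM6 (genotype *Pnpt1* neo-flox/neo-flox, no treatment) was the parent line, immortalized with SV40 large T-antigen. The rho0 MEFs, which lack mtDNA, came from a single colony of TM6 cells that had been exposed to 750 ng/mL ditercalinium, a DNA intercalator, over 3 weeks. PKO-1 and PKO-6 grew from single TM6 cells after an adenovirus had delivered Cre recombinase to excise the floxed part of *Pnpt1*. The authors report that these clones had also lost their mtDNA and did not respire, so TM6 is the only line here with mtDNA. Each line was sequenced in 3 biological replicates. These are cultures of 1 line or clone each, so p-values measure the spread between cultures, and a difference between lines cannot be told apart from a difference between clones.

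Libraries held 47164860 to 67991378 estimated counts. The *Pnpt1* count, which includes exons outside the deletion, averaged 3131 normalized counts in TM6 (SD 262), 5271 in rho0 (SD 230), 1240 in PKO-1 (SD 44.3) and 1944 in PKO-6 (SD 250), each over 3 libraries. A normalized count here is a count divided by the library's TMM-scaled size relative to the mean library. Of 12 fibroblast markers, *Vim*, *S100a4*, *Col1a1*, *Col1a2* and *Fn1* were abundant in every line, whereas *Thy1* and *Fap* stayed at 20 counts or fewer in any library. The summed TPM (an abundance per transcript length, scaled to one total in every library) of the 12 markers was 6624 to 6824 in TM6, 3764 to 3866 in rho0, 6796 to 6962 in PKO-1 and 3026 to 3347 in PKO-6. Thus the sum was lower in rho0 and PKO-6, the lines in which most of the genes below changed, and its part in those changes was not tested. *Vim* and *S100a4* gave most of it (means of 2300 and 2253 TPM in TM6). Of 10 markers tested, 8 were called lower and 1 higher in rho0, 2 and 5 in PKO-1, and 6 and 2 in PKO-6. *Fn1* was called higher in each of these lines (log2 1.07, 1.19 and 0.88). Of all genes, 21.4%, 17.9% and 19.4% were called lower and 20.7%, 16.4% and 21.9% higher. Among the immune markers, *Cd68* was detected, with a mean of 2.73 TPM in TM6, 3.61 in rho0, 2.72 in PKO-1 and 5.29 in PKO-6 (called higher there than in TM6, log2 1.02), *Ptprc* had at most 3 counts in a library, and *Adgre1* and *Cd3e* had 0 counts in all 12. The 5 endothelial markers summed to 0.16 to 1.65 TPM over all lines. *Vwf* was called higher in PKO-1 and PKO-6 (log2 4.55 and 5.08), and *Kdr* lower in rho0 and PKO-1 (-2.10 and -1.32) and higher in PKO-6 (1.36). The 5 epithelial markers summed to 6.22 to 6.55 TPM in TM6 and 10.15 to 11.67 in rho0. In PKO-1 their sum was 19.2 to 20.2 TPM and in PKO-6 1.74 to 2.08. *Krt18* was called higher in rho0 and PKO-1 (0.83 and 1.76) and lower in PKO-6 (-4.88). *Epcam* was called higher in PKO-6 (4.29) and *Krt8* lower in rho0 (-2.96). In these bulk samples, fewer cells of a kind, such as cells in S phase, and less RNA per cell cannot be told apart.

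The promoters of *Rrm2* and *Tk1*, whose RNA was lower in rho0 than in TM6, and of the 2 carriers, whose RNA was higher, are shown because these genes moved in opposite directions. Each is the 250 bases before the RefSeq start in GRCm38.p6, on the coding strand, 5′ to 3′. Capitals mark CCAAT and the GC box GGGCGG, read on both strands, so that CCGCCC is a GC box on the other strand. The positions are chr12:24708004-24708253 (plus strand) for *Rrm2*, chr11:117826015-117826264 (minus) for *Tk1*, chr4:149774268-149774517 (minus) for *Slc25a33* and chr9:97111042-97111291 (minus) for *Slc25a36*.
Rrm2: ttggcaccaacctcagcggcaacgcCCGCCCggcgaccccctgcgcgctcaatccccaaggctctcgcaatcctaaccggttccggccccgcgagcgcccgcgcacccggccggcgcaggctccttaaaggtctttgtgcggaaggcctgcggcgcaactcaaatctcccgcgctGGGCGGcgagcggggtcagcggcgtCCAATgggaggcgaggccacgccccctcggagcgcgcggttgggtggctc
Tk1: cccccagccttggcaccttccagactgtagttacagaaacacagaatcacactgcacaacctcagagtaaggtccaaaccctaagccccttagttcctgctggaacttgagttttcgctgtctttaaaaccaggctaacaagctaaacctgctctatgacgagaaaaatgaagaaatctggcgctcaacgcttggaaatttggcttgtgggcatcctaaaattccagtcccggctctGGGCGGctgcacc
Slc25a33: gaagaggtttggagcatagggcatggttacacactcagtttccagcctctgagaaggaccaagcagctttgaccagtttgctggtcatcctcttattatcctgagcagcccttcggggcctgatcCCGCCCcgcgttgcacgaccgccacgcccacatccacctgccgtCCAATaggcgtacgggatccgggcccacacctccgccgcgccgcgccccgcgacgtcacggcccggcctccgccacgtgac
Slc25a36: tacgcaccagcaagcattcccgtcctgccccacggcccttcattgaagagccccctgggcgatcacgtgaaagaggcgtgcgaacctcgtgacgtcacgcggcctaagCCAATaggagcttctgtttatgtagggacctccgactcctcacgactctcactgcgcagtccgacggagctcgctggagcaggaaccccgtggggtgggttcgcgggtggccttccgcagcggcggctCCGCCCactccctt

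CCAAT stood 50 bases before the start in *Rrm2*, 81 in *Slc25a33* and 142 in *Slc25a36*, and was absent from these letters in *Tk1*. RefSeq promoters were matched for 9 of the 10 genes, all but *Rrm2b*. CCAAT was in 4 of the 9 (*Rrm1*, *Rrm2*, *Slc25a33* and *Slc25a36*) and in 33.8% of 32851 promoters of this length. The GC box was in 7 of the 9, all but *Rrm1* and *Dguok*, and in 32.7% of all promoters. The cell cycle element known as CHR, searched as TTTGAA and TTCGAA, was in *Tk2* and *Dck* and in 17.1% of all. The E2F words TTTCCCGC, TTTGGCGC, TTTCGCGC and TTTGCCGC, found in 1.86% of all promoters, matched 0 of the 9, as did the amino acid response word TGATGNAA, found in 3.45%. Some of these words can overlap one another. CCAAT and the GC box were thus present both in genes that rose and in genes that fell.

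On the TPM scale, which corrects for transcript length, levels of the 10 genes spanned a wide range with a similar order in each line. *Rrm2*, *Rrm1* and *Tk1* were the highest in all 4 lines, at 74.0 to 165 TPM (means of 3 libraries), followed by *Samhd1* at 27.2 to 73.1 TPM. *Tk2* was the lowest in every line, at 5.69 to 7.45 TPM, and *Rrm2b* the next, with a mean of 6.27 TPM in TM6. In TM6, *Rrm1* at 126 ± 5.56 TPM and *Tk1* at 124 ± 5.68 TPM lay within their SDs of each other, whereas *Slc25a33* at 15.4 ± 0.817 TPM and *Slc25a36* at 13.3 ± 0.576 TPM did not (SD, n = 3).

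**Figure D1:**
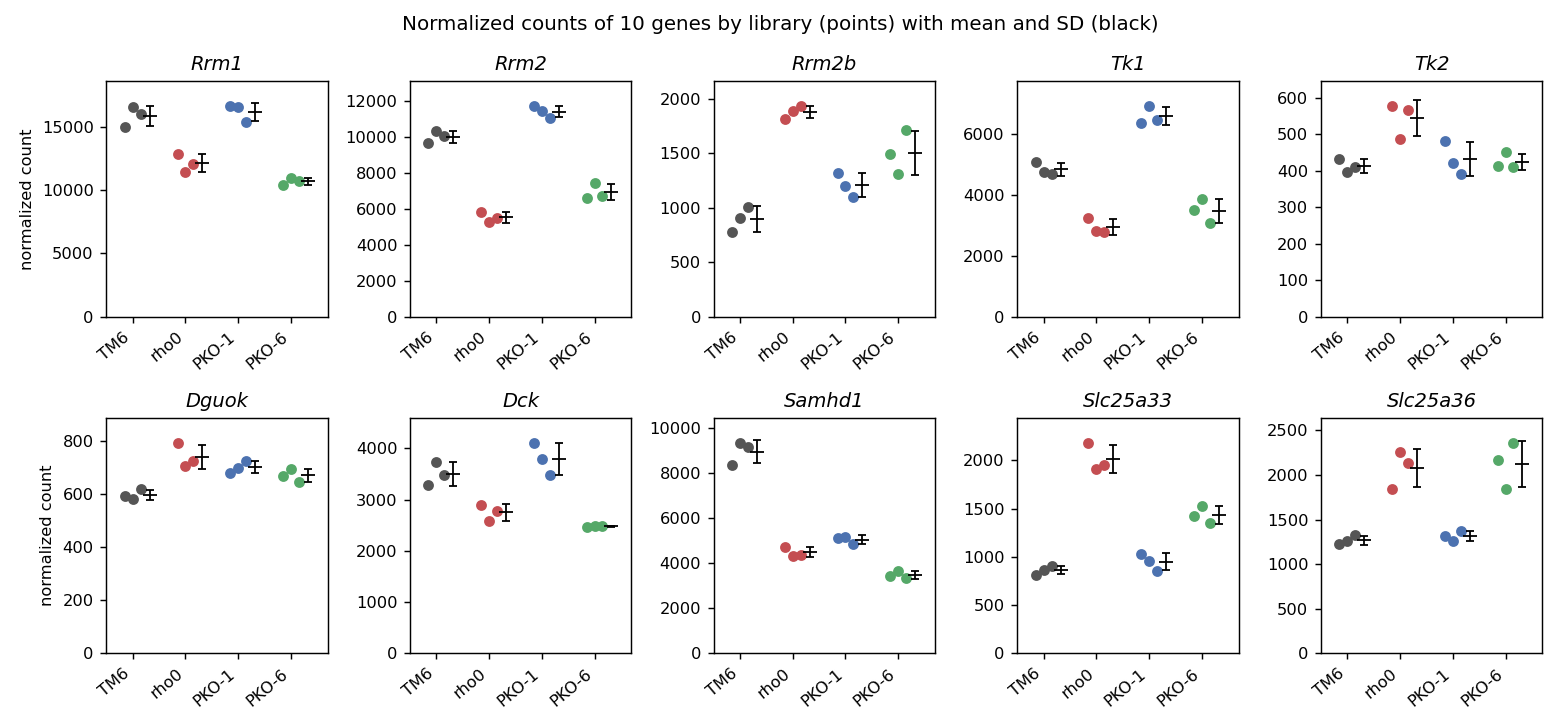
Normalized counts (y axis, linear from 0) of each of the 10 genes in the 12 libraries, by line; points are libraries and the black bar gives the mean and SD of 3. For *Samhd1* the 3 TM6 libraries sit at 8382 to 9349, above all 9 others, whereas for *Slc25a36* TM6 and PKO-1 sit together below rho0 and PKO-6.

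Relative to TM6, rho0 and PKO-6 each had 6 of the 10 genes called, and PKO-1 had 1. The call rests on edgeR's quasi-likelihood test and needs an adjusted p under 0.01 together with a log2 fold change beyond 0.5 in either direction. In rho0, 3 genes were higher (*Rrm2b*, *Slc25a33*, *Slc25a36*) and 3 lower (*Rrm2*, *Tk1*, *Samhd1*). The share of all tested genes called was 42.1%, with 20.7% higher and 21.4% lower. In PKO-6 the same carriers and *Rrm2b* were higher and *Rrm1*, *Rrm2* and *Samhd1* lower, where the shares over all genes were 41.3% for any call, 21.9% for higher and 19.4% for lower. In PKO-1 only *Samhd1* was called, lower, with 34.3% of all genes called, 16.4% higher and 17.9% lower. The median absolute log2 fold change of the 10 genes was 0.72 in rho0, 0.16 in PKO-1 and 0.55 in PKO-6, beside 0.48, 0.39 and 0.46 over all tested genes. The 3 libraries of rho0 did not overlap those of TM6 for any of the 10 genes, those of PKO-1 for 5 and those of PKO-6 for 9, beside 72.8%, 71.8% and 71.9% of all genes. The 3 comparisons share the TM6 libraries. When both clones were fitted as 1 PKO group, *Tk1* (adjusted p = 0.0536) and *Slc25a36* (adjusted p = 0.0209) were not called in rho0 by edgeR. With the chromosome medians subtracted, *Rrm1* at -0.52 and *Tk2* at 0.58 also passed the fold threshold in rho0. Here and below, this shifts only the fold change and keeps the adjusted p of the unshifted test. No gene was thus tested against its chromosome.

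**Figure D2:**
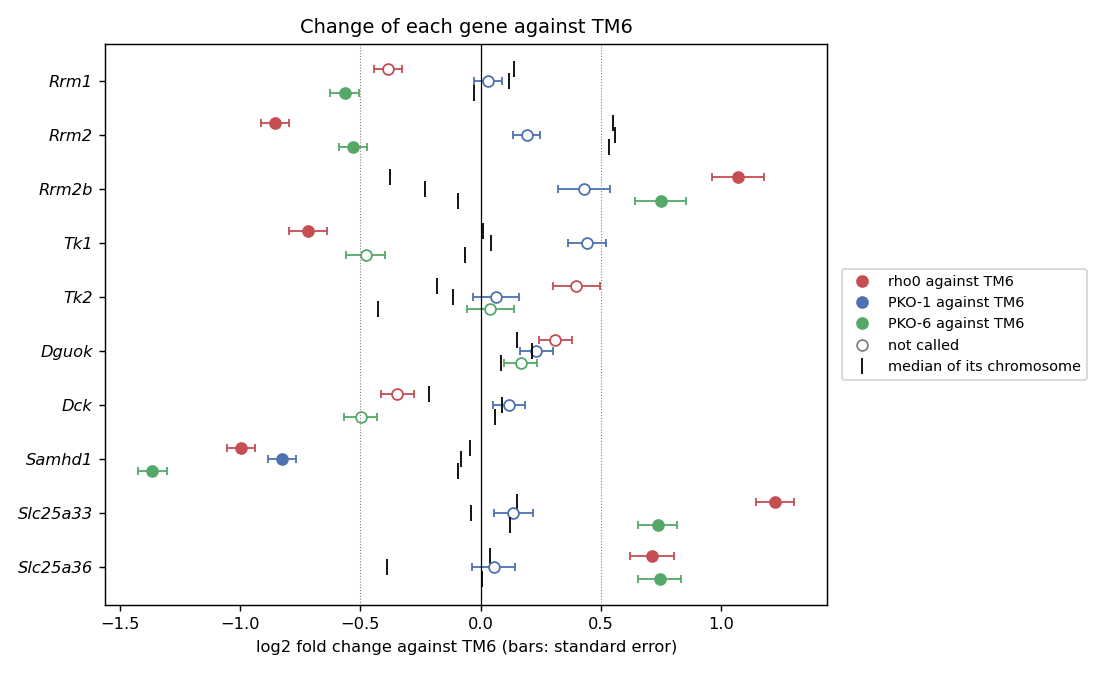
Log2 fold change of each gene against TM6 (x axis) with its standard error, for rho0, PKO-1 and PKO-6; filled points were called, dotted lines mark 0.5 in both directions and black ticks give the median of all tested genes on the gene's chromosome. *Samhd1* lies at -0.997, -0.83 and -1.36, and the ticks for *Rrm2* all lie near 0.55, to the right of its points.

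*Rrm2*, on chromosome 12, fell in rho0 and PKO-6. Normalized counts of 9638, 10302 and 10031 were found in the TM6 libraries, 5827, 5249 and 5493 in rho0, 11696, 11460 and 11054 in PKO-1, and 6608, 7418 and 6728 in PKO-6. The 4 lines thus stood apart, in the order PKO-1, TM6, PKO-6 and rho0, without overlap. The log2 fold change against TM6 was -0.85 ± 0.06 (SE) in rho0 (edgeR adjusted p = 1.64e-08) and -0.53 ± 0.06 in PKO-6 (adjusted p = 1.85e-06). In PKO-1 it was 0.19 ± 0.06 (adjusted p = 0.0103), which was not called. The median gene of chromosome 12 lay 0.55, 0.56 and 0.53 above TM6 in rho0, PKO-1 and PKO-6, so that relative to its chromosome *Rrm2* was lower by more, and in PKO-1 its sign turned, to -0.37.

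*Rrm1*, on chromosome 7, ranged from 14962 to 16539 normalized counts in TM6, 11450 to 12874 in rho0, 15363 to 16632 in PKO-1 and 10417 to 10997 in PKO-6. TM6 and PKO-1 overlapped, and rho0 and PKO-6 lay below both. It fell in PKO-6 (log2 fold change -0.57 ± 0.06, adjusted p = 1.29e-06, edgeR). In rho0 the value was -0.39 ± 0.06 (adjusted p = 5.42e-05), under the fold threshold, and in PKO-1 it was 0.03 with a 95% interval of -0.09 to 0.15.

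*Rrm2b*, on chromosome 15, moved the other way. Its normalized counts were 776, 905 and 1008 in TM6, 1818, 1888 and 1934 in rho0, 1318, 1202 and 1098 in PKO-1, and 1493, 1307 and 1712 in PKO-6. All 9 libraries of the other lines lay above the 3 TM6 libraries, and the 2 clones overlapped. It rose 2.10-fold in rho0 (log2 1.07 ± 0.11, adjusted p = 7.61e-07) and 1.68-fold in PKO-6 (0.75 ± 0.11, adjusted p = 2.39e-05). In PKO-1 the log2 fold change of 0.43 ± 0.11 (adjusted p = 0.00309) was not called, though it was without TM6 replicate 3 or relative to the chromosome median, at up to 0.66. These tests are edgeR's.

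The balance of the 2 small subunits differed between lines. Within each library, the ratio of *Rrm2* to *Rrm2b* TPM was 21.6 to 26.9 in TM6, 19.3 to 21.8 in PKO-1, 8.55 to 12.3 in PKO-6 and 6.03 to 6.93 in rho0. The ranges of TM6 and PKO-1 overlapped, and those of PKO-6 and rho0 lay below both and apart from each other. The ratio of the large subunit gene *Rrm1* to *Rrm2* was 0.814 to 0.840 in TM6, 0.727 to 0.757 in PKO-1, 0.778 to 0.830 in PKO-6 and 1.14 to 1.16 in rho0. Only in rho0 did every library hold more *Rrm1* than *Rrm2* TPM.

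**Figure D3:**
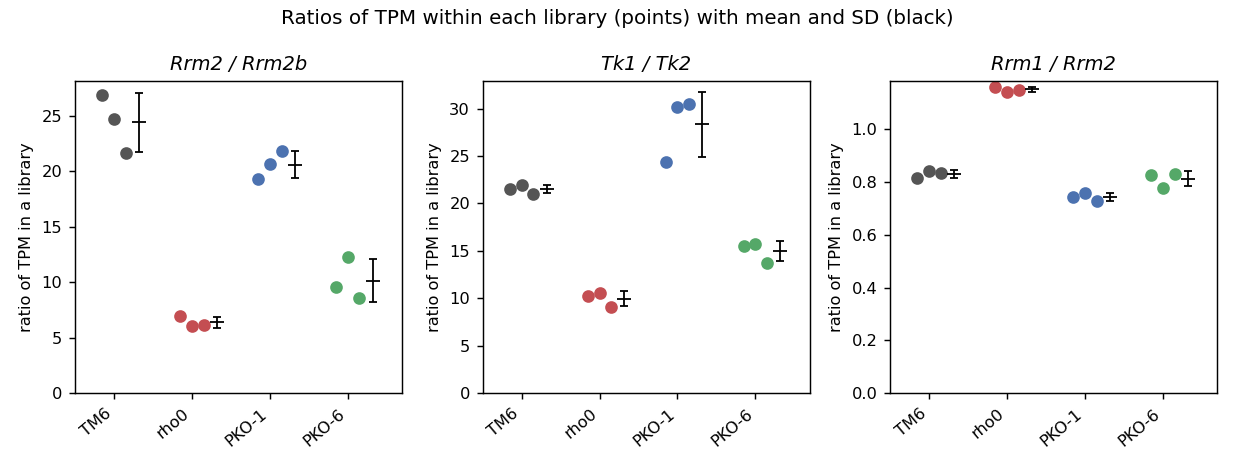
Ratio of TPM within each library (y axis, linear from 0) for *Rrm2* to *Rrm2b*, *Tk1* to *Tk2* and *Rrm1* to *Rrm2*, by line; points are libraries and the black bar gives the mean and SD of 3. Mean *Rrm2* to *Rrm2b* is 24.4 in TM6 and 6.38 in rho0. *Tk2* TPM sums a coding and a non-coding transcript.

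*Tk1*, on chromosome 11, encodes the thymidine kinase of dividing cells. Its normalized counts were 5088, 4741 and 4698 in TM6, 3229, 2808 and 2792 in rho0, 6368, 6905 and 6460 in PKO-1, and 3507, 3853 and 3068 in PKO-6. PKO-1 lay above TM6 in all libraries, and rho0 and PKO-6 lay below it and overlapped. The log2 fold change was -0.72 ± 0.08 in rho0 (edgeR adjusted p = 2.5e-06). In PKO-1 it was 0.44 ± 0.08 (adjusted p = 0.000246) and in PKO-6 -0.48 ± 0.08 (adjusted p = 0.000106), both under the fold threshold. The PKO-6 value was called in 4 of 12 alternatives, at up to -0.59. *Tk1* shares 96 bases with *Afmid* on the other strand; *Afmid* had 199 to 470 counts per library, and the strand setting of the counting was not given in the sources used here.

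*Dck*, on chromosome 5, encodes deoxycytidine kinase, which phosphorylates deoxycytidine and purine deoxynucleosides. It ranged from 3280 to 3734 normalized counts in TM6, 2580 to 2900 in rho0, 3478 to 4107 in PKO-1 and 2458 to 2494 in PKO-6. PKO-1 overlapped TM6, whereas rho0 and PKO-6 lay below both. The log2 fold change was -0.50 ± 0.07 in PKO-6 (edgeR adjusted p = 1.48e-05), just inside the fold threshold, and -0.35 ± 0.07 in rho0 (adjusted p = 0.000397). Neither was called, though the PKO-6 value was called in 9 of 12 alternatives.

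Neither mitochondrial kinase gene was called against TM6 in any line, unless chromosome medians were removed, which gave *Tk2* a call in rho0. *Tk2*, on chromosome 8, had 396 to 431 normalized counts in TM6, 488 to 576 in rho0, 392 to 482 in PKO-1 and 411 to 450 in PKO-6, so that only rho0 lay apart. The log2 fold change in rho0 was 0.40 ± 0.10 (edgeR adjusted p = 0.00209), not called. Its 95% interval was -0.13 to 0.25 in PKO-1 and -0.15 to 0.23 in PKO-6, where the median of chromosome 8 lay at -0.43. The *Tk2* counts sum a coding and a non-coding transcript. In PKO-1 the estimated TPM of the coding one was higher than in TM6 and that of the non-coding one lower. *Dguok*, on chromosome 6, encodes deoxyguanosine kinase. It had 581 to 618 normalized counts in TM6, 705 to 793 in rho0, 681 to 725 in PKO-1 and 647 to 695 in PKO-6. All 9 libraries of the other lines lay above TM6, with log2 fold changes of 0.31 ± 0.07, 0.23 ± 0.07 and 0.17 ± 0.07, none called.

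In TPM summed over all transcripts, the cytosolic and mitochondrial thymidine kinase genes therefore differed in balance. For *Tk2* this sum includes the non-coding transcript NR_045642.1, at 3.62 ± 0.281 TPM in TM6 and 2.60 ± 0.592 in PKO-1. The coding NM_021028.3 stood at 2.14 ± 0.020 and 3.12 ± 0.038 TPM. The ratio below thus does not give the balance of coding transcripts, for which the order of TM6 and PKO-1 may differ. The ratio of *Tk1* to *Tk2* TPM averaged 21.5 ± 0.473 (SD, n = 3) in the TM6 libraries, and it was 24.4 to 30.4 in PKO-1, 13.7 to 15.7 in PKO-6 and 9.07 to 10.6 in rho0, with no overlap between any of the lines. The ratio of *Dck* to *Dguok* TPM averaged 1.81 ± 0.163 in TM6, 1.70 ± 0.180 in PKO-1, 1.17 ± 0.029 in PKO-6 and 1.18 ± 0.033 in rho0.

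*Samhd1*, on chromosome 2, encodes a dNTP triphosphohydrolase that lowers dNTP pools and restricts retroviruses. It fell in all 3 lines. Normalized counts were 8382, 9349 and 9172 in TM6, 4737, 4346 and 4392 in rho0, 5131, 5191 and 4852 in PKO-1, and 3431, 3663 and 3352 in PKO-6. The lines did not overlap, with TM6 highest, then PKO-1, rho0 and PKO-6. The log2 fold changes against TM6 were -0.997 ± 0.06 in rho0 (adjusted p = 3.49e-09), -0.83 ± 0.06 in PKO-1 (adjusted p = 3.06e-08) and -1.36 ± 0.06 in PKO-6 (adjusted p = 1.27e-10) by edgeR. The median gene of chromosome 2 moved by -0.04, -0.08 and -0.09, and *Samhd1* was called in every alternative for these 3 comparisons. A list of interferon stimulated genes, examined because interferon can induce *Samhd1* in some cells, had 9 of 15 tested called lower and 0 higher in each line, beside 21.4%, 17.9% and 19.4% of all genes called lower in rho0, PKO-1 and PKO-6. For example, *Ifit1* lay at -2.73 in rho0, -1.11 in PKO-1 and -2.82 in PKO-6 (log2).

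*Slc25a33*, on chromosome 4, was counted at 816, 867 and 904 (normalized) in TM6, 2181, 1909 and 1954 in rho0, 1031, 959 and 855 in PKO-1, and 1428, 1533 and 1349 in PKO-6. PKO-1 overlapped TM6, PKO-6 lay above both and rho0 was highest. It rose 2.34-fold in rho0 (log2 1.22 ± 0.08, adjusted p = 9.75e-09) and 1.67-fold in PKO-6 (0.74 ± 0.08, adjusted p = 1.63e-06) by edgeR. In PKO-1 the log2 fold change was 0.14, with a 95% interval of -0.02 to 0.29.

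*Slc25a36*, on chromosome 9, was counted at 1223, 1254 and 1323 (normalized) in TM6, 1839, 2256 and 2134 in rho0, 1315, 1260 and 1368 in PKO-1, and 2163, 1847 and 2359 in PKO-6. The lines formed 2 levels, TM6 with PKO-1 and rho0 with PKO-6, each overlapping within itself. It rose 1.64-fold in rho0 (log2 0.71 ± 0.09, adjusted p = 7.55e-06) and 1.68-fold in PKO-6 (0.75 ± 0.09, adjusted p = 4.52e-06) in edgeR's test. In PKO-1 the difference was 0.05, with a 95% interval of -0.12 to 0.23, and the median of chromosome 9 lay at -0.39.

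The 2 PNPase knockout clones differed from each other in 7 of the 10 genes, beside 29.1% of all genes. Of all genes, 11.5% stood higher in PKO-1 and 17.6% stood lower. *Tk1* was 1.89-fold higher in PKO-1 (log2 0.92 ± 0.08, edgeR adjusted p = 3.2e-07) and *Rrm2* 1.65-fold higher (0.72 ± 0.06, adjusted p = 1.45e-07). *Dck*, *Rrm1* and *Samhd1* were higher by 0.62, 0.60 and 0.54 on the log2 scale. The carriers were lower in PKO-1, *Slc25a36* by -0.69 ± 0.09 and *Slc25a33* by -0.60 ± 0.08. *Rrm2b* (-0.32 ± 0.11), *Dguok* (0.07 ± 0.07) and *Tk2* (0.02 ± 0.10) were not called. Relative to chromosome medians, 4 of the 7 remained past the thresholds, and *Rrm1* (0.49), *Slc25a33* (-0.43) and *Slc25a36* (-0.32) did not.

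Against rho0, PKO-1 had 5 of the 10 called, beside 32.7% of all genes, and PKO-6 had 0, beside 21.5%. In PKO-1, *Tk1* (log2 1.16 ± 0.08) and *Rrm2* (1.05 ± 0.06) were higher, where 15.1% of all genes were, and *Slc25a33* (-1.09 ± 0.08), *Slc25a36* (-0.66 ± 0.09) and *Rrm2b* (-0.64 ± 0.11) lower, with 17.6% of all genes. Relative to its chromosome median *Slc25a36* stood at -0.22, which was not called. Adjusted p by edgeR was at most 0.000129 for these 5. Between PKO-6 and rho0 edgeR and DESeq2 each called 0. By edgeR, *Rrm2* (0.32), *Tk2* (-0.36), *Samhd1* (-0.37) and *Slc25a33* had an adjusted p under 0.01 with changes inside the fold threshold. The libraries of PKO-6 and rho0 did not overlap for 8 of the 10 genes, beside 56.7% of all genes. *Slc25a33* came nearest, at -0.49 ± 0.08 (adjusted p = 0.00014), and was called when rho0 replicate 2 or 3 or PKO-6 replicate 2 was left out, at up to -0.55. *Slc25a36* differed by 0.03, with a 95% interval of -0.14 to 0.21.

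With the 6 PKO libraries as 1 group, 2 of the 10 genes were called against TM6, beside 25.7% of all genes: *Samhd1* at -1.07 ± 0.14 (adjusted p = 9.25e-05) and *Rrm2b* at 0.60 ± 0.13 (adjusted p = 0.00303) by edgeR. The 6 libraries came from only 2 clones but were fitted as independent samples. The p-values of this grouping thus rest on 2 knockouts and not on 6. *Rrm2b* was not called without TM6 replicate 1 (0.47, adjusted p = 0.029) or replicate 2 (0.60, adjusted p = 0.014). Against rho0, 1 was called, *Slc25a33* at -0.76 ± 0.17 (edgeR adjusted p = 0.00558), beside 10.7% of all genes. That call was lost without any 1 rho0 library or without PKO-1 replicate 1 or 2, at adjusted p values of 0.0103 to 0.0216. The pooled SE of *Tk1*, 0.25, was larger than the 0.08 of the lines fitted apart.

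Transcript estimates are available for 4 of the genes with 2 transcripts each, as RSEM's TPM. These are model estimates of shared reads, so shares are described without a test. The 17-exon *Samhd1* transcript NM_001139520.1 made up 9.24% to 10.4% of the gene's TPM in TM6, 28.6% to 29.5% in rho0, 12.8% ± 0.143 (SD, n = 3) in PKO-1 and 14.7% to 19.4% in PKO-6. Its own TPM was 7.09 ± 0.141 in TM6 and 10.4 ± 0.369 in rho0, as the means of 3 libraries, while that of the 16-exon NM_018851.3 was 66.0 ± 3.82 and 25.4 ± 0.597. In rho0 only the 16-exon transcript was estimated below its TM6 level, whereas in PKO-1 and PKO-6 both had lower TPM than in TM6.

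The 6-exon *Dguok* transcript NM_001162521.1 held 31.5% to 44.4% of the gene's TPM in TM6, 7.44% to 16.9% in rho0, 19.5% to 24.5% in PKO-1 and 12.9% to 16.1% in PKO-6. The 7-exon NM_013764.2 stood at 12.6 ± 0.722 TPM in TM6 and 21.4 ± 0.958 in rho0, beside gene totals of 20.4 ± 0.981 and 24.1 ± 0.525. The non-coding *Tk2* transcript NR_045642.1 held 60.9% to 64.3% in TM6 and 41.5% to 51.5% in PKO-1, and the coding NM_021028.3 stood at 2.14 ± 0.020 and 3.12 ± 0.038 TPM in these lines. The 6-exon *Tk1* transcript NM_001271729.1 stayed below 10% in all libraries. Among 1475 genes with 2 transcripts and at least 5 TPM, shares did not overlap with TM6 for 35.8% in rho0, 35.1% in PKO-1 and 33.6% in PKO-6, with a median absolute difference of 2.29, 2.17 and 2.23 percentage points.

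**Figure D4:**
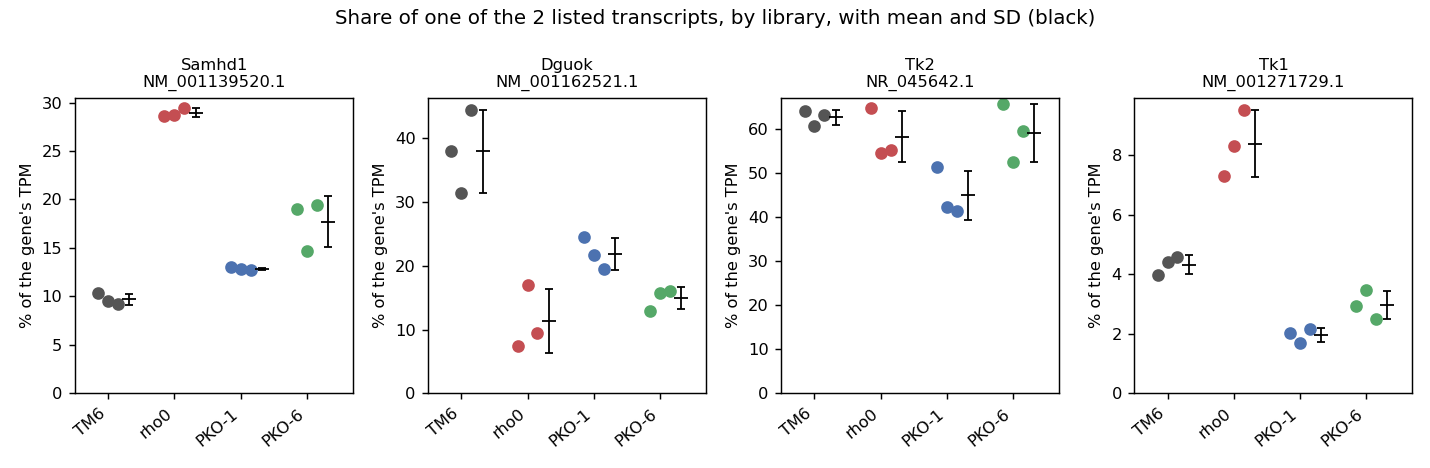
Share of one of the 2 transcripts in the gene's TPM (y axis, percent, linear from 0) for *Samhd1*, *Dguok*, *Tk2* and *Tk1*, by line; points are libraries and the black bar gives the mean and SD of 3. The *Samhd1* share is highest in rho0, at 28.6% to 29.5%, and the *Dguok* share is highest in TM6, at 31.5% to 44.4%.

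Of 30 other genes of dNTP synthesis and breakdown, 29 were tested, all but *Cmpk2*. In rho0 5 were higher and 5 lower, in PKO-1 6 and 3, and in PKO-6 4 and 5, with medians of -0.15, 0.04 and -0.06 (log2), beside 0.02, 0.00 and 0.01 over all genes. Of all genes, 20.7% were called higher and 21.4% lower in rho0, 16.4% and 17.9% in PKO-1, and 21.9% and 19.4% in PKO-6. *Nme4*, a mitochondrial nucleoside diphosphate kinase, and *Suclg2*, a subunit of GTP-forming succinyl-CoA ligase, rose in all 3 lines, *Nme4* by 1.88, 1.28 and 1.29 and *Suclg2* by 1.33, 0.98 and 0.89 in rho0, PKO-1 and PKO-6. *Ada*, adenosine deaminase, fell by 1.45 in rho0 and in PKO-1, and *Slc29a3*, a nucleoside transporter, fell by 0.91 and 0.86. Both were also called lower in PKO-6, *Ada* at -0.63 and *Slc29a3* at -0.71. In PKO-6 *Cmpk1*, which phosphorylates CMP and UMP, fell by 0.86 and *Pnp*, purine nucleoside phosphorylase, by 0.73. Both were also called lower in rho0 (-0.54 and -0.84) and were not called in PKO-1 (-0.35 and -0.36).

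A list of 24 S phase genes was examined because *Rrm1*, *Rrm2* and *Tk1* are transcribed with them. In rho0 1 was higher and 7 lower, in PKO-1 0 and 5, and in PKO-6 0 and 11, with medians of -0.30, -0.15 and -0.45. The shares of all genes called lower were 21.4%, 17.9% and 19.4%. *Mcm5*, of the replicative helicase, lay at -0.72 in rho0, -0.75 in PKO-1 and -1.32 in PKO-6. *Ccna2*, cyclin A2, lay at -1.02 in rho0, -0.02 in PKO-1 (not called) and -0.72 in PKO-6. In PKO-1, *E2f1* was lower by -0.70 while *Tk1* stood at 0.44 and *Rrm2* at 0.19, neither of them called. Of 17 p53 target genes, a class that includes *Rrm2b*, 7 were higher and 3 lower in rho0, 9 and 2 in PKO-1, and 13 and 2 in PKO-6, with medians of 0.27, 0.52 and 1.19, beside 20.7%, 16.4% and 21.9% of all genes called higher. *Cdkn1a*, the cell cycle inhibitor p21, lay at 2.24 in PKO-1, where it was lower than in PKO-6 (log2 -1.07). All lines descend from cells immortalized with SV40 large T-antigen, whose part in the S phase and p53 lists was not tested.

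**Figure D5:**
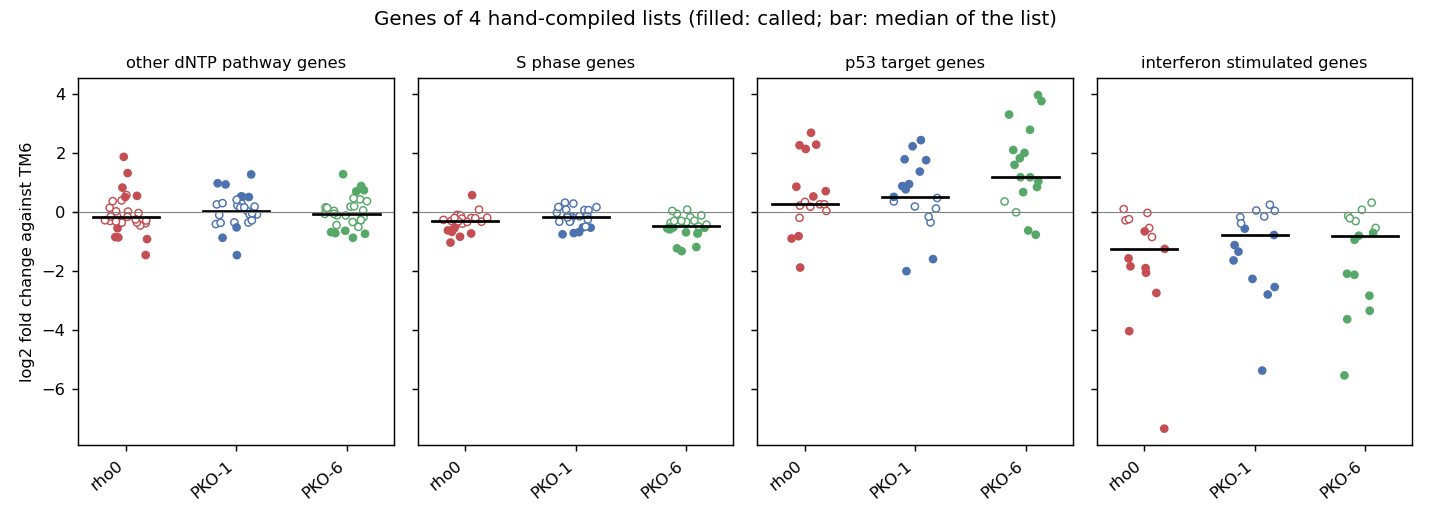
Log2 fold change against TM6 (y axis) of the tested genes of 4 lists in rho0, PKO-1 and PKO-6; filled points were called and black bars are list medians. The p53 target medians are 0.27, 0.52 and 1.19, and the S phase medians are -0.30, -0.15 and -0.45.

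Across the 12 libraries, which come in 4 lines, several of the 10 genes ran together in log2 level by Pearson's r, given as a description. Such an r rests largely on 4 line means, and no r over all tested genes is given beside it. The likeness is thus not read as particular to these genes. *Rrm1* was most like *Dck* (r = 0.98) and *Rrm2* most like *Tk1* (r = 0.96), whereas *Rrm2b* was most like *Slc25a33* (r = 0.91). *Rrm1* and *Slc25a36* ran opposite (r = -0.94), as did *Rrm2* and *Slc25a33* (r = -0.92). Among the other dNTP genes, *Sucla2* was the most like *Rrm1* (r = 0.96), *Dctpp1* the most like *Tk1* (r = 0.95) and *Nme4* the most like *Dguok* (r = 0.92).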

How the data were processed

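RNA-seq data of 12 libraries (TM6, rho0, PKO-1 and PKO-6 MEFs, 3 each) were used. The deposited gene table holds unnormalized expected counts. The authors obtained them by RSEM 1.2.25 and Bowtie2 from stranded, rRNA-depleted, paired-end libraries against RefSeq transcripts of mm10, after merging technical duplicates. Deposited per-library values also give TPM per transcript, summed here to genes. Expected counts, of which 12.5% had decimals, were rounded. *Rn45s* held 12.2% to 19.6% of a library. The table holds 0 genes encoded by mtDNA, which was not analysed here.

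In R 4.3.3, the quasi-likelihood test of edgeR 4.0.16 (TMM scaling, low counts removed by filterByExpr at its minimum of 10) was fitted to all 14026 tested genes with 4 lines as groups, and, for PKO as a whole, with 3 groups. Benjamini-Hochberg adjustment was over all tested genes in each of 8 comparisons. A standard error is the log2 fold change divided by the square root of F, and a 95% interval takes the estimate as normally distributed. The test was checked on simulated counts. Precision is limited by 3 cultures per line. By a chi-square summed over the tested genes, replicates differed by more than sampling noise in all 12 pairs. Genes with many counts, such as *Rn45s*, weigh heavily in this sum, so it does not give the spread of a single gene.

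Alternatives were DESeq2 1.42.0 (size factors and Wald test), no filter, a replicate block, other groupings, chromosome medians removed, and each library left out. Removing chromosome medians shifted the fold changes only and kept the adjusted p of the unshifted test. All 10 genes are named. From each other list, up to 2 genes per direction with the largest changes and at least 100 normalized counts are named. Markers are named by level or call. The genes and lists, compiled by hand, were chosen with earlier results of these data known. A withheld marker is not reported here.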

Additional observations from a re-analysis of the deposited data

Results flagged for a closer look

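The 2 knockout clones, made from the same parent by the same excision, differed in their change against TM6 for 7 of the 10 genes by edgeR's quasi-likelihood test of PKO-1 against PKO-6, beside 29.1% of all tested genes. The change was more positive in PKO-1 by 0.92 for *Tk1*, 0.72 for *Rrm2*, 0.62 for *Dck*, 0.60 for *Rrm1* and 0.54 for *Samhd1* on the log2 scale. It was more negative in PKO-1 for *Slc25a36*, at -0.69, and for *Slc25a33*, at -0.60. With chromosome medians removed, 3 of the 7 were not called, *Rrm1* at 0.49, *Slc25a33* at -0.43 and *Slc25a36* at -0.32. In 10 tests of the 6 PKO libraries, 0 single libraries stood out. These tests took both clones together. Where the clones lay apart, the gap between them set the range, so a library outlying within its clone could hardly be flagged.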

How the results depend on the processing

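Of the values of single genes under alternatives, 972 kept direction and side of the threshold, 28 gained a call, 14 lost one and 16 changed sign. All 16 are values not called in the fits reported. With chromosome medians removed, PKO-1 against TM6 became -0.088 for *Rrm1* and -0.37 for *Rrm2*, PKO-1 against PKO-6 -0.27 for *Tk2* and -0.055 for *Dguok*, and PKO against rho0 -0.13 for *Dck*. Of the 10 genes, those called then numbered 8 for rho0 against TM6, 2 for PKO-1 against TM6 and 4 for PKO-1 against PKO-6. These numbers stand without the share of all genes under that setting, so they are not read as particular to the 10. Leaving out 1 library gave ranges that crossed 0: PKO-1 against TM6 ran from -0.040 to 0.069 for *Rrm1*, -0.021 to 0.13 for *Tk2* and -0.0019 to 0.087 for *Slc25a36*, PKO-6 against TM6 from -0.037 to 0.063 for *Tk2*, PKO-1 against PKO-6 from -0.060 to 0.091 for *Tk2*, PKO-6 against rho0 from -0.068 to 0.11 for *Slc25a36*, and PKO against TM6 from -0.058 to 0.16 for *Tk1*. The mean of both clones from 4 fitted lines gave -0.018 for that last value, and 3330 genes called in all and 3 of the 10 for PKO against rho0. DESeq2's Wald test also called 3 of the 10 there. Leaving out 1 library gave 1 to 2 of the 10 for PKO-1 against TM6, 0 to 1 for PKO-6 against rho0, 1 to 2 for PKO against TM6, and 841 to 1699 genes in all and 0 to 3 of the 10 for PKO against rho0. It gave 6 to 8 of the 10 for PKO-6 against TM6 and 5 to 6 for PKO-1 against rho0. The cause was not tested.

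Replicates share a number, and nothing in the labels ties equal numbers together. Correlations of same-numbered libraries ran from -0.53 to 0.41 (median 0.15), 10 of 18 above 0.1, those of differently numbered ones had a median of -0.058, 11 of 36 above 0.1, and 5 of 12 libraries were most like their own number. A replicate block called 0 of the 10 and 1097 genes in all for PKO against rho0, where *Slc25a33* lost its call, and left the number of the 10 called in the other 7 comparisons as it was.

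With 3 cultures of 1 clone per line, clone and condition cannot be told apart. Whether RNA was purified by TriZol or a column kit was not given per library in the sources used here. RNA levels say nothing of dNTP pools.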
